A study of Mus musculus with 384 samples.

Results

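CD8 T cells of B16F10 melanomas were divided by how many of 4 checkpoint receptor genes they carried, and the divided cells were compared across the rest of their RNA. The 4 genes were Pdcd1 (PD-1), Havcr2 (TIM-3), Lag3 and Tigit. A gene counted as detected at 1 FPKM or more, FPKM being fragments scaled to transcript length and library size. Cells with 3 or 4 detected receptors formed the class with many receptors, and cells with 0 or 1 formed the class with few. The series holds 94 single-cell wells on each of 4 plates, and 2 of these plates hold CD8 cells. The required 1000 detected genes were reached by 72 and 77 CD8 cells, of which 56 in all were cells with many receptors and 82 cells with few. The remaining 11 carried 2 receptors and entered neither class. The cells were thus chosen by the measured FPKM of the 4 receptors, and these values support nothing below.

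Single T cells were profiled by Smart-seq2, a plate method that copies full-length transcripts of each cell and adds no molecular identifiers. B16F10 is a transplantable melanoma line of C57BL/6 mice, and tumours grew in a wild-type source (WT4 in the titles) and in a source labelled Il27ra knockout (KO4), both C57BL/6. Each source gave 1 CD8 plate and 1 CD4 plate of 94 single cells, 1 population well and 1 well without a cell, and no agent besides the tumour is named. Genotype, animal and plate cannot be told apart. The labels read here state neither age nor the number of mice behind a plate, and the treatment label names CD8 cells alone.

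PD-1, TIM-3, LAG-3 and TIGIT are surface receptors that dampen T cell activation when they meet their ligands on tumour or antigen-presenting cells. T cells that see antigen for a long time come to carry several of them together, a state usually called exhaustion or dysfunction. In mouse tumours such cells are known to coexist with cells that keep features of naive, memory or stem-like T cells, including the transcription factor TCF-1 encoded by Tcf7.

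The wild-type plate held 41 cells with many receptors, 26 with few and 5 with 2, out of 72 kept cells. The plate labelled knockout held 15, 56 and 6, out of 77. Cells with many receptors were 56.9% of kept wild-type cells (exact Clopper-Pearson 95% interval 44.7 to 68.6) and 19.5% of kept cells labelled knockout (11.3 to 30.1). These intervals cover counting error within a plate only. The classes therefore rest on unequal numbers of cells, with the smaller class in opposite plates.

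Counting from 0 to 4 receptors, the wild-type plate held 8, 18, 5, 10 and 31 cells, and the plate labelled knockout 23, 33, 6, 7 and 8. Cells with a single receptor usually carried Tigit, in 13 of 18 wild-type cells and 26 of 33 labelled knockout, and none carried Havcr2. Among cells with 3 receptors Havcr2 was mostly the missing one, being present in 2 of 10 and 1 of 7. Havcr2 was thus the receptor detected almost only beside the other 3, and it was absent from all 11 cells with 2 receptors.

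The receptor levels chose the classes and are given as a description. Median levels in wild-type cells with many receptors were 1402.5 FPKM for Pdcd1 (chromosome 1, 94038305 to 94052553), 287.45 for Havcr2 (chromosome 11, 46454935 to 46481255), 702.17 for Lag3 (chromosome 6, 124904361 to 124911705) and 1127.24 for Tigit (chromosome 16, 43648867 to 43664146). The same class labelled knockout had medians of 1130.63, 67.32, 1418.96 and 817.64 FPKM. In cells with few receptors the medians were 0, except for Tigit at 0.75 FPKM in wild type. Most values were far from the threshold. Receptor values at 1 FPKM or more in wild-type cells had a median of 675.24 FPKM and a lowest of 1.37, and 18 lay below 10. The highest value outside was 0.9. On the plate labelled knockout there were 98 such values with a median of 474.15 FPKM and a lowest of 1.03, 20 lay below 10, and the highest outside was 0.99.

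Depth differed between the classes in the same direction in both plates. Wild-type cells with many receptors had a median of 3125 detected genes (1004 to 5776) and those with few 2071 (1102 to 5029). On the plate labelled knockout the medians were 3053 (1604 to 5525) and 2183.5 (1075 to 3671). When wild-type cells were ordered by detected genes and divided into 3 equal parts, many-receptor cells made up 12.5%, 70.8% and 87.5% of them from shallow to deep. The shares on the plate labelled knockout were 11.5%, 12% and 34.6%. A cell that holds more RNA and a cell that was captured or sequenced better both show more genes, and the 2 cannot be told apart here.

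**Figure D1:**
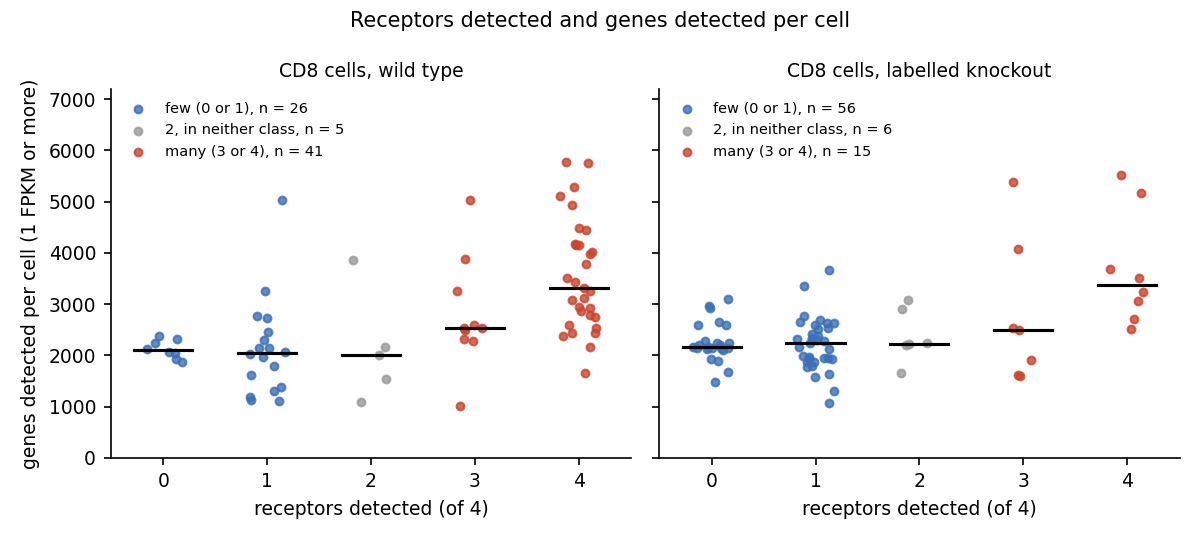
Detected genes per kept CD8 cell (vertical axis, genes at 1 FPKM or more) against the number of receptors detected (horizontal axis), 1 point per cell and 1 panel per plate. Cells with 4 receptors are the deepest by median, with 3315 genes in wild type and 3374.5 on the plate labelled knockout, against 2100 and 2167 with 0 receptors.

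All other genes were compared within each plate on the log2(FPKM + 1) scale. The adjusted difference is the class term of a linear model that also holds the log2 number of detected genes, and the plain difference is the difference of the class means. Both are differences of mean logs and mix how many cells hold a transcript with how much they hold, so neither is a fold of mean expression. The classes were cut from the cells of 1 source per plate, so cells are not replicates, and no p-value was made. A gene was called by size when its adjusted difference was at least 1 log2 in the same direction in both plates.

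Of 7536 genes tested, 4.14% were called higher in cells with many receptors and 2.27% lower, together 483 genes (6.41%), while 2.76% passed 1 log2 in opposite directions. Single plates called far more. In wild type 920 genes were higher (12.2%) and 861 lower (11.4%), and on the plate labelled knockout 1305 (17.3%) and 795 (10.5%). The genes called higher in both are 33.9% of the wild-type calls and 23.9% of the calls of the other plate, and those lower are 19.9% and 21.5%. Across the tested genes, which are not independent, the adjusted differences of the plates correlated at Pearson r = 0.22. The median adjusted difference of all genes was -0.01 in wild type and 0.06 on the other plate. Without the depth term these medians were 0.85 and 0.65, and 1875 genes were higher (24.9%) and 37 lower (0.491%). Genes that passed 1 log2 in both plates with and without the depth term were 4.02% of those tested when higher and 0.478% (36 genes) when lower. Most lower calls, unlike the higher ones, therefore rest on the depth term.

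**Figure D2:**
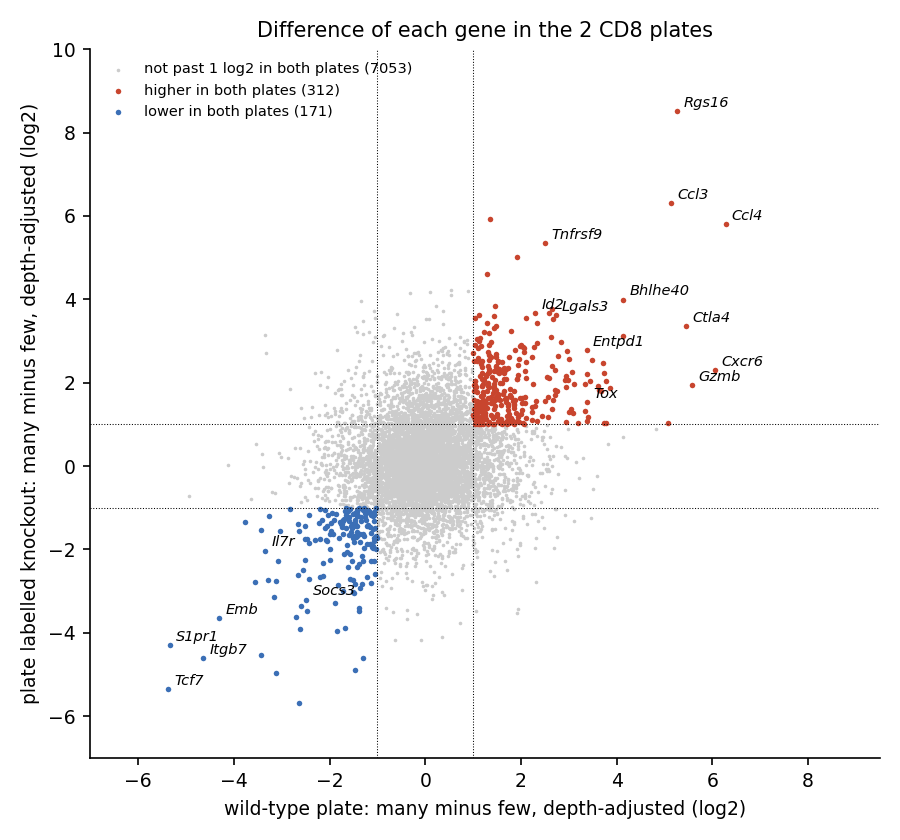
Adjusted difference, many minus few receptors, in the wild-type plate (horizontal axis, log2) and in the plate labelled knockout (vertical axis, log2), 1 point per tested gene, with called genes coloured and the named ones labelled. Called genes fill the upper right corner (4.14% of those tested) and the lower left corner (2.27%), while most genes lie near 0.

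Stretches before the RefSeq starts of 3 called genes are shown, because each holds a short motif of a factor family linked to T cell activation or to TCF-1. Capitals mark the motif. Ccl3 (chr11:83649379-83649628, minus strand) and Ctla4 (chr1:60908775-60909024, plus strand) are higher genes and hold the NFAT core GGAAAA on the opposite strand, which reads TTTTCC here. Emb (chr13:117220323-117220572, plus strand) is a lower gene and holds the TCF and LEF motif ATCAAAG. The Ctla4 and Emb stretches lie inside the longer GENCODE spans of their genes. Sequences are RefSeq, build GRCm38.p6, 250 bases, 5′ to 3′ on the gene's strand.
Ccl3: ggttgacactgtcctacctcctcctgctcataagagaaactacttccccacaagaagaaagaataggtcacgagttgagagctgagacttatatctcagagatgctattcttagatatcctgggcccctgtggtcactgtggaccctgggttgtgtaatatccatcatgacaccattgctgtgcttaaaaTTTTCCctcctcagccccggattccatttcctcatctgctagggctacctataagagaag
Ctla4: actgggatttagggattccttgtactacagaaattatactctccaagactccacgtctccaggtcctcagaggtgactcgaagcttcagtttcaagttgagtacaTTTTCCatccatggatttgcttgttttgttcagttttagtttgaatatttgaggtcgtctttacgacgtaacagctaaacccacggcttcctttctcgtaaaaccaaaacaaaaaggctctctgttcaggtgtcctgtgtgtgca
Emb: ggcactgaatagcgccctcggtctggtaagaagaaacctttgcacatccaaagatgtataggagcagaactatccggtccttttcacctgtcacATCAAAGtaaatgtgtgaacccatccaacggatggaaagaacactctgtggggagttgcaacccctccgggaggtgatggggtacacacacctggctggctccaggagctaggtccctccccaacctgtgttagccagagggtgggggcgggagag
Both strands of the 250 bases before the start were searched in every gene with an entry. The NFAT core was present in 18.7% of higher genes, 15.91% of lower genes, 19.13% of 5697 tested genes and 20.64% of all 27025 promoters. ATCAAAG was present in 3.04% of higher, 3.79% of lower, 2.21% of tested and 3.23% of all. Other motifs were the AP-1 site TGANTCA (6.52% of higher, 4.55% of lower, 4.02% of tested, 6.87% of all), the BHLHE40 E-box CACGTG (9.57%, 4.55%, 9.06%, 6.05%) and the NR4A monomer AAAGGTCA (0.0%, 0.76%, 0.79%, 1.31%). A match is a string of letters and not a shown binding site, and the shares of the called genes lay near those of the tested genes or rest on few promoters.

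Further inhibitory receptors accompanied the 4 that cut the classes. Counts of called list members, here and below, stand beside 4.14% higher and 2.27% lower among all tested genes. Of 15 measured other co-inhibitory genes, 4 were called higher and none lower. The list median was 0.37 in wild type and 0.46 on the plate labelled knockout. Ctla4 (chromosome 1, 60887000 to 60915832), which encodes a receptor that competes with CD28 for B7 ligands, was found in 36 of 41 wild-type many-receptor cells (87.8%, 73.8 to 95.9) and 4 of 26 with few (15.4%, 4.36 to 34.9). On the plate labelled knockout it was detected in 12 of 15 (80%, 51.9 to 95.7) and 24 of 56 (42.9%, 29.7 to 56.8). Its median in wild type was 394.07 FPKM (highest 1653.75) against 0 (highest 752.27), and on the other plate 619.33 (highest 1370.52) against 0 (highest 1491.93). The medians were apart and the ranges overlapped in both plates. Means were 7.67 ± 3.10 against 1.35 ± 3.15 log2 in wild type and 7.43 ± 3.96 against 3.21 ± 4.03 on the other plate (SD over cells). Ctla4 differed by 5.45 and 3.37 log2, adjusted, wild type before knockout label as in all pairs of values below.

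Entpd1 (chromosome 19, 40612366 to 40741602) encodes CD39, an enzyme that breaks down extracellular ATP. It was detected in 30 of 41 and 5 of 26 wild-type cells and in 6 of 15 and 3 of 56 cells labelled knockout, with adjusted differences of 3.37 and 2.78. The median of the many-receptor class was 109.2 FPKM in wild type and 0 on the other plate, so its higher mean there came from 6 of 15 cells. Klrc1, part of the NKG2A receptor, differed by 1.35 and 5.94, and Il10ra, a chain of the IL-10 receptor, by 3.78 and 1.04. Klrc1 shares sequence with its neighbours, so its counting is uncertain. Other-cell markers, where cells were left out by them, are melanoma, myeloid, B cell, stromal and erythroid ones, without the NK list. Leaving out cells with such a marker besides Tyr at 10 FPKM or more put Klrc1 at 2.39 in the mean of the plates. Leaving out cells by Tyr too, which left 10 and 5 wild-type cells and 6 and 18 labelled knockout, put it at -0.95. Cd38 and Cd200r1 passed 1 log2 in wild type alone (2.40 and 1.24, against -0.18 and 0.55), and Cd160 was at -1.20 and -0.11. The list was thus not higher as a whole.

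Of 14 measured partners and ligands of the 4 receptors, 2 were called higher and none lower. The medians of 0.08 and -0.11 cover members that went both ways, with 3 members above 0 and 4 below 0 in both plates. Ptpn11, the phosphatase SHP-2 that binds the PD-1 tail, differed by 1.12 and 1.42. Lgals3, a galectin that binds LAG-3, differed by 2.73 and 3.62 and was detected in 21 of 41 against 1 of 26 and in 9 of 15 against 11 of 56. Ptpn6, the related phosphatase SHP-1, lay at -3.35 in wild type and 3.14 on the plate labelled knockout. The difference between the plates was not tested. Cd226, the activating counterpart of TIGIT, passed 1 log2 in wild type alone (-2.09 and 0.46), and Lgals9, a ligand of TIM-3, on the other plate alone (0.77 and -2.44).

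Co-stimulatory receptors were called higher in 4 of 12 measured genes, with list medians of 0.35 and 1.57. Tnfrsf9 (chromosome 4, 150914562 to 150946102), which encodes 4-1BB, occurred in 26 of 41 and 4 of 26 wild-type cells and in 12 of 15 and 7 of 56 labelled knockout. Its median FPKM was 210.85 against 0 and 589.67 against 0, and it differed by 2.50 and 5.36. Icos differed by 2.51 and 1.56, Cd28 by 2.02 and 1.35, and Slamf1 by 1.77 and 1.84. When cells with markers of other cell types were left out, Cd28 turned to -0.53 in the mean of the plates, and to -0.59 when Tyr was used too. Receptors that pass activating signals were therefore found in the same cells as the inhibitory ones, and Cd27 went in opposite directions (-1.07 and 3.72).

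Transcription factors linked to dysfunction were called higher in 7 of 21 measured genes, with list medians of 1.60 and 1.21 and none lower. Bhlhe40 (chromosome 6, 108660629 to 108666925), a helix-loop-helix repressor induced by activation, had wild-type medians of 438.99 FPKM with many receptors and 0 with few, in 37 of 41 and 5 of 26 cells. Its medians labelled knockout were 444.26 and 0 FPKM, in 12 of 15 and 24 of 56 cells, and it differed by 4.13 and 4.0. Id2 (chromosome 12, 25093799 to 25097140), an inhibitor of E proteins needed by effector CD8 cells, had medians of 608.93 against 10.54 and 643.69 against 251.76 FPKM and differed by 2.30 and 3.68. Both genes overlapped between classes in single cells.

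Tox, a nuclear factor required for the exhausted state, was detected in 32 of 41 and 4 of 26 wild-type cells, and in only 5 of 15 and 7 of 56 labelled knockout. It differed by 3.39 and 1.53. Rbpj, the partner of Notch in the nucleus, leaned the other way in size with 1.92 and 5.02. Nr4a1 and Nr4a2, nuclear receptors induced by T cell receptor signals, differed by 2.27 and 2.86 and by 2.34 and 2.94. Egr2 passed narrowly (1.14 and 1.11) on 6 and 4 cells with many receptors, and only with the depth term. Batf, Prdm1 and Irf4 passed in wild type alone (2.44, 2.22 and 1.60, against 0.64, 0.03 and 0.75), and Tbx21, encoding T-bet, went in opposite directions (-1.84 and 2.79).

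Naive, memory and stem-like genes held more lower calls than any other list. Of 16 measured, 9 were called lower and none higher, 7 of the 9 also without the depth term, and the medians were -1.97 and -1.94. Tcf7 (chromosome 11, 52252371 to 52283014), encoding TCF-1, occurred in 2 of 41 wild-type cells with many receptors (4.88%, 0.596 to 16.5) and 14 of 26 with few (53.8%, 33.4 to 73.4). The counts labelled knockout were 3 of 15 (20%, 4.33 to 48.1) and 40 of 56 (71.4%, 57.8 to 82.7). Median levels were 0 against 58.3 FPKM and 0 against 225.8 FPKM, with highest values of 123.94 against 1498.61 and 222.53 against 1744.47. Mean log2 values were 0.32 ± 1.41 against 4.39 ± 4.28 and 1.40 ± 2.90 against 5.80 ± 4.07 (SD over cells). Tcf7 differed by -5.38 and -5.35, nearly equal in the 2 plates.

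S1pr1 (chromosome 3, 115710433 to 115715072), the sphingosine phosphate receptor that lets T cells leave tissue, was detected in 3 of 41 and 16 of 26 wild-type cells and in 1 of 15 and 37 of 56 labelled knockout. It differed by -5.34 and -4.29. The lymph node homing receptor Ccr7 differed by -1.47 and -4.89. S1pr1 was thus rare among cells with many receptors in both plates.

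Il7r, a chain of the receptor for the survival cytokine IL-7, was detected in 1 of 41 against 11 of 26 wild-type cells but in 9 of 15 against 41 of 56 cells labelled knockout. Its differences were -3.35 and -2.03. Emb, encoding embigin, a partner of lactate transporters, differed by -4.31 and -3.64, and Lef1, a relative of TCF-1, by -2.67 and -1.38. Satb1, a chromatin organiser, differed by -1.49 and -3.05 and Ly6c2 by -2.62 and -3.91. Ly6c2 and Lef1 were called only with the depth term. Slamf6, often used to mark stem-like cells, was at -0.45 and -1.62 and was not called, and neither were Klf2, Klf3 and Foxp1.

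**Figure D3:**
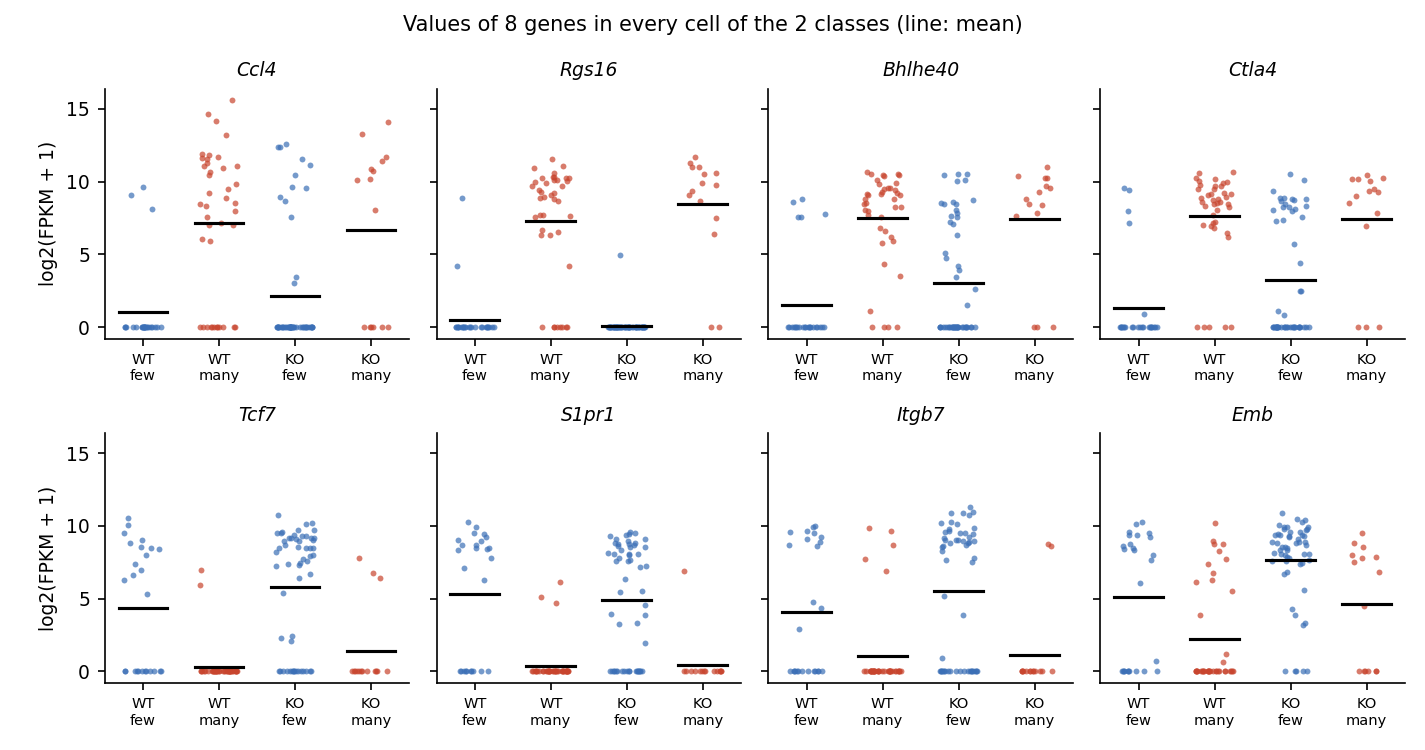
Level of named genes in each CD8 cell (vertical axis, log2(FPKM + 1)) by plate and class, 1 point per cell, with bars at the class means. Cells at 0 and cells at high values occur in nearly every class, and the classes differ in the number of cells away from 0, as for Tcf7 with 2 of 41 against 14 of 26 wild-type cells.

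Genes of killing were called higher in 4 of 12 measured, with medians of 1.02 and 1.69. Gzmb (chromosome 14, 56258838 to 56262260), the protease granzyme B, had wild-type medians of 1596.33 FPKM with many receptors and 0 with few, in 35 of 41 and 5 of 26 cells. Labelled knockout, the medians were 1.68 and 0 FPKM, in 8 of 15 and 15 of 56 cells. Mean log2 values were 9.12 ± 3.97 against 1.93 ± 4.08 in wild type and 5.36 ± 5.92 against 2.68 ± 4.54 on the other plate (SD over cells). The classes stood further apart in wild type (5.58) than on the other plate (1.94), a gap that was not tested. Fasl, the ligand of the death receptor Fas, differed by 1.98 and 2.87. The granule genes Nkg7 and Srgn differed by 1.19 and 1.92 and by 1.48 and 1.66, and they were detected in most cells of either class. Gzmk passed in wild type alone (4.82 and 0.88), and Prf1, perforin, on the other plate alone (0.54 and 4.23). Classes were also cut with 1 receptor left out, setting 2 or more of the other 3 against 0, so the cut moved too. Without Havcr2 these classes are the cells with 2 to 4 of all 4 receptors against those with 0. With this cut the list median turned to -0.10 in the mean of the plates and Nkg7 to -0.075. Without Pdcd1 Srgn turned to -0.14. The part of the left-out receptor and the part of the moved cut were not separated.

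The inflammatory chemokines Ccl3 and Ccl4, neighbours on chromosome 11 secreted by activated T cells, were among the genes furthest apart. Ccl3 (83647844 to 83649355) occurred in 24 of 41 wild-type cells with many receptors (58.5%, 42.1 to 73.7) and 0 of 26 with few, a count that allows a share of up to 13.2%. On the other plate it was detected in 10 of 15 (66.7%, 38.4 to 88.2) and 1 of 56 (1.79%, 0.045 to 9.55). Its highest values were 45281.02 and 31123.17 FPKM with many receptors, and it differed by 5.14 and 6.31. Ccl4 (83662584 to 83664683) was detected in 29 of 41 and 3 of 26 and in 9 of 15 and 13 of 56, and differed by 6.28 and 5.80, with mean log2 values of 7.15 ± 5.11 against 1.03 ± 2.92 and 6.69 ± 5.81 against 2.17 ± 4.24 (SD over cells). Many-receptor cells thus ranged from no chemokine RNA to very high levels.

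Of 8 measured cytokine and chemokine genes, 4 were called higher, and the medians were 1.58 and 2.51. Ifng, the cytokine interferon gamma, was detected in 17 of 41 and 2 of 26 wild-type cells and in 9 of 15 and 10 of 56 labelled knockout. It differed by 2.10 and 3.55. Tnf differed by 1.33 and 1.06, was called only with the depth term, and was detected in only 5 of 41 and 3 of 15 cells with many receptors. It turned to -0.18 in the mean of the plates when cells needed 2000 genes. Xcl1 was at -0.31 and 4.16 and Ccl5 at 1.82 and -0.57, and neither was called. Effector RNA was therefore present beside the inhibitory receptors, and Ccl3, Ccl4 and Ifng passed 2 log2 in both plates.

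Receptors of migration divided. Of 12 measured, Cxcr6, Ccr2 and Itgb2 were called higher and Cxcr3, Cxcr4 and Itgb7 lower. Cxcr6, the receptor of CXCL16 found on tissue T cells, was detected in 38 of 41 and 6 of 26 wild-type cells and in 9 of 15 and 25 of 56 labelled knockout, and differed by 6.07 and 2.31. Itgb7 (chromosome 15, 102215995 to 102231944), an integrin chain for gut homing, was detected in 5 of 41 and 13 of 26 and in 2 of 15 and 34 of 56, and differed by -4.64 and -4.61. Cxcr3 and Cxcr4 were called lower only by adjustment in at least 1 plate, at -1.08 and -1.73 and at -1.23 and -1.30. Cxcr3 turned to 0.55 in the mean of the plates when 4 receptors were set against 0, and Itgb2 to -0.049 with classes cut without Havcr2.

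Rgs16 (chromosome 1, 153740349 to 153745468), which shortens signals of G protein coupled receptors such as those for chemokines, had the largest separation on the plate labelled knockout among the named genes. It was detected in 13 of 15 cells with many receptors (86.7%, 59.5 to 98.3) and 1 of 56 with few there (1.79%, 0.045 to 9.55), and in 33 of 41 and 2 of 26 wild-type cells. Mean log2 values were 8.46 ± 3.72 against 0.09 ± 0.67 there and 7.28 ± 3.92 against 0.50 ± 1.89 in wild type (SD over cells). Medians were 861.46 and 494.91 FPKM against 0, and the differences were 8.52 and 5.26. The single cell labelled knockout with few receptors held 30.41 FPKM. Rgs16 and Cxcr6 were the 2 called genes of 6 measured for tissue residence, and Cd69 was at -0.90 and -0.70.

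Annexins, S100 proteins and galectins, which bind calcium, membranes or sugars and accompany effector differentiation, were called higher in 9 of 14 measured genes. Their medians of 2.69 and 1.84 were the highest of the functional lists in wild type. Anxa2 was detected in 40 of 41 and 13 of 26 wild-type cells and in 12 of 15 and 26 of 56 labelled knockout, and differed by 3.78 and 2.05. S100a11 differed by 3.72 and 2.47, Lgals1 by 3.64 and 1.81, and S100a4 by 5.08 and 1.04. Capg, an actin capping protein, differed by 2.65 and 3.77 but came to 0.16 in the mean of the plates when cells with other-cell markers besides Tyr were left out, and to -0.92 when Tyr was used too.

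Metabolic lists had medians above those of all genes. Of 30 oxidative phosphorylation subunits 8 were called higher and none lower (medians 1.11 and 0.55), among them Ndufa1, Ndufb7 and Atp5g3. Of 17 glycolysis genes, Gapdh, Tpi1, Pgam1 and the glucose transporter gene Slc2a3 were called higher (list medians 0.74 and 0.61). Pdk1, a brake on pyruvate entry into mitochondria, was called lower, and only with the depth term. Gapdh had median levels of 9834.64 and 2045.13 FPKM in wild type and 5828.28 and 1849.77 on the other plate, and differed by 1.23 and 1.13. Gapdh was detected in nearly every cell, so its difference is one of level rather than of detection. Cox17, a copper chaperone of cytochrome oxidase, was outside these lists and differed by 4.14 and 3.13.

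Cell cycle genes depended on depth. Of 19 DNA replication genes none was called, and their plain medians of 2.75 and 1.86 came to 0.22 and 0.42 with the depth term. Of 19 mitosis genes, the plain medians of 2.18 and 1.79 came to -0.28 and 0.27. The centromere histone Cenpa was called higher and the tubulin gene Tuba1b lower. Such single calls do not set the list apart from all tested genes (4.14% higher and 2.27% lower). Tuba1b was higher without the depth term, by 1.95 in the mean of the plates. Of 15 housekeeping genes, the ribosomal gene Rps3 was called lower and none higher (medians -0.49 and -0.28), and Rps3 turned to 0.59 in the mean of the plates without the depth term. Cells in cycle hold more RNA, so the depth term and the cycle cannot be told apart.

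Of 23 T cell receptor signalling genes 6 were called higher (medians 0.26 and 0.28): the adaptors Lat, Sla and Sh2d2a, the surface protein Cd6, the ubiquitin ligase Cblb and the phosphatase-like Ubash3a. Cblb and Ubash3a are known as negative regulators of T cell receptor signals and differed by 1.37 and 1.22 and by 1.44 and 1.85. Lat turned to -0.36 in the mean of the plates when classes were cut without Havcr2, and Ubash3a came to 0.88 without cells bearing other-cell markers besides Tyr and to -0.61 when Tyr was used too. Of 19 immediate early genes, Egr1, Dusp1 and Dusp2 were called higher (1.05 and 1.94, 1.53 and 1.67, 2.09 and 2.27), while the medians were -0.28 and 0.19 and Fos lay at -3.14 and -0.64.

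Interferon-stimulated genes were called lower in 4 of 22 measured and higher in none, with medians of -0.40 and -1.95. Irf7, Gbp2, Igtp and Ifi47 differed by -1.70 and -2.10, -1.43 and -2.41, -1.32 and -2.83, and -1.39 and -3.49. Irf7 alone of these was also lower in the plain difference of both plates, and it turned to 0.24 when cells were paired on detected genes. Irf1, Zbp1 and Usp18 passed on the plate labelled knockout and not in wild type, at -2.33, -2.77 and -2.93. Proteasome and antigen presentation genes had 0 calls among 22 and medians of 0.52 and -0.82, and Tap1, Tap2, Psma4 and Psmb10 went in opposite directions in the 2 plates.

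Of 20 genes of IL-27 and related cytokine signalling, 1 was called higher (Il10ra) and 2 lower (the feedback inhibitors Socs1 and Socs3). The shares over all tested genes were 4.14% and 2.27%, so the single higher call does not set the list apart. Socs1 was called only with the depth term. Socs3 differed by -2.49 and -3.20 and was detected in 14 of 41 and 13 of 26 and in 7 of 15 and 34 of 56 cells. Il27ra, the targeted gene, was detected in 27 of 41 and 9 of 26 wild-type cells and in 11 of 15 and 30 of 56 labelled knockout, and differed by 1.90 and -0.52. Its transcript was thus detected under the knockout label too. Which part of the gene is deleted is not stated in the labels, so these values do not check the label.

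**Figure D4:**
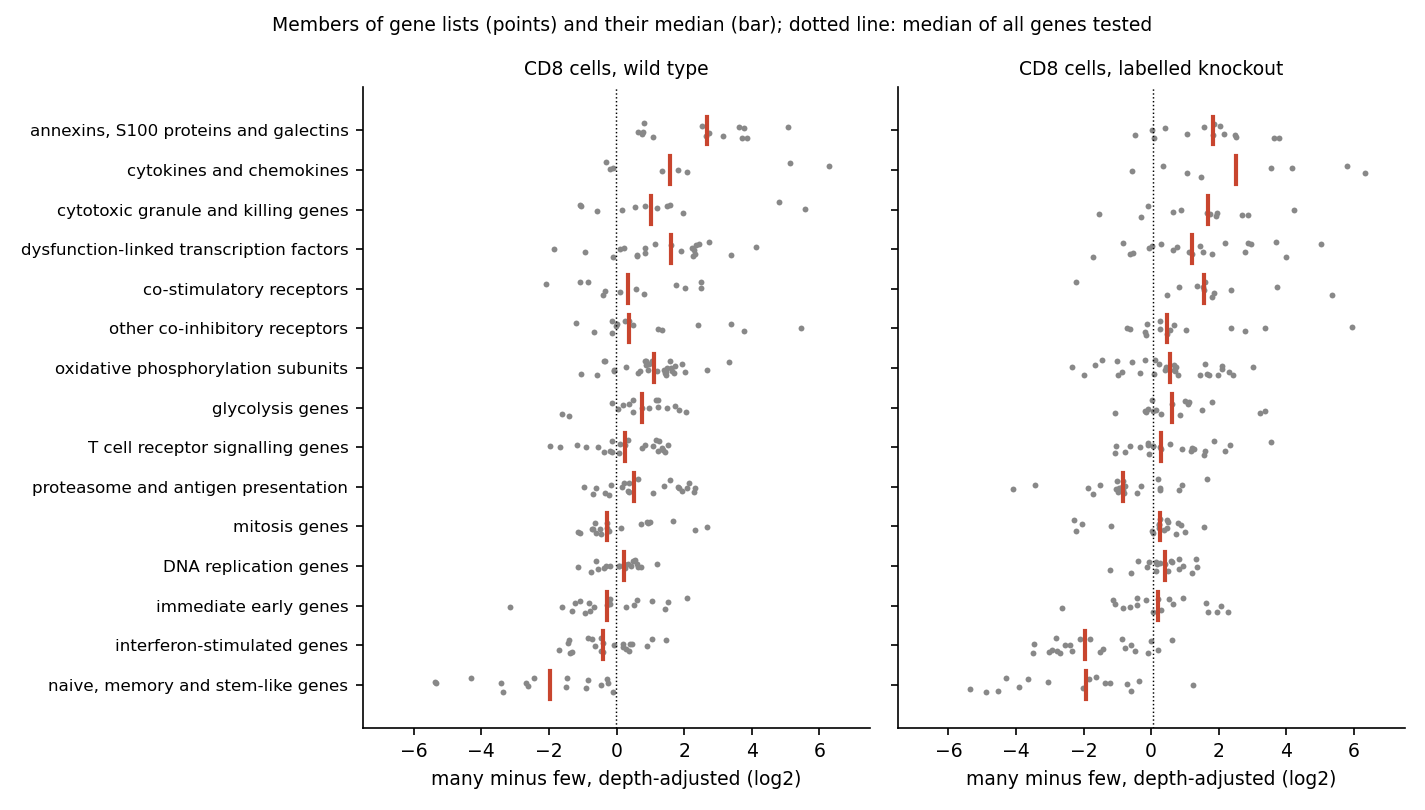
Adjusted difference, many minus few receptors (horizontal axis, log2), of every measured member of 15 gene lists (points) with the list median (bar), 1 panel per plate, and the median of all tested genes as a dotted line. The naive, memory and stem-like list lies lowest in wild type (median -1.97), and the annexin, S100 and galectin list is at 2.69 and 1.84.

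Genes outside the lists were also called. Among the 15 higher genes with the largest smaller difference were Litaf (2.85 and 2.99), a lysosomal regulator, the protease gene Adam8 (2.96 and 2.75), Efhd2 (2.77 and 2.65) and Gdi2, which recycles Rab proteins (2.63 and 3.09). Bcl2a1d (2.68 and 3.52) and Bcl2a1b (2.59 and 3.68), survival genes of the BCL-2 family, are near-identical copies whose reads cannot be divided with certainty. Among the 15 lower genes were Tnfrsf26 (-3.56 and -2.77), Sidt1 (-3.29 and -2.73), Txk, a kinase of the TEC family (-3.11 and -2.76), Klhl6 (-2.71 and -3.61), Gramd3 (-2.64 and -5.69) and Sepp1, a selenium carrier (-3.17 and -3.13). Sepp1 is also abundant in macrophages. Tgtp2 (-3.11 and -4.96), an interferon-inducible GTPase gene, has a close copy and is uncertain.

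The called genes did not move evenly with the receptor number. The mean over all higher-called genes, taken per cell, had medians of 1.85, 1.54, 1.83, 4.36 and 5.13 log2 in wild-type cells with 0 to 4 receptors. Labelled knockout, the medians were 2.20, 2.05, 2.81, 3.80 and 5.38. These means were not adjusted for depth, which also differed with the receptor number. The genes were chosen for the difference between the ends, so the rise from few to many is fixed by the choice. Cells with 4 receptors were 31 of the 41 wild-type cells with many, so the step from 3 to 4 is partly fixed too. Only cells with 2 receptors entered neither class. Cells with 0 and with 1 receptor lay close together in both plates, and cells with 2 were near them or slightly above. The lower genes had medians of 4.19, 3.84, 3.11, 2.56 and 2.98 in wild type and 3.72, 3.81, 3.45, 2.33 and 2.51 labelled knockout.

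Single genes differed in where they changed. Tcf7 was detected in 2 of 10 wild-type cells with 3 receptors and 0 of 31 with 4, and in 3 of 7 and 0 of 8 labelled knockout. Rgs16 was detected in 6 of 10 and 27 of 31 and in 5 of 7 and 8 of 8. Gzmb was detected in 6 of 10 and 29 of 31 wild-type cells, and in 2 of 7 and 6 of 8 labelled knockout. Detection thus still differed between 3 and 4 receptors, which mostly differ by Havcr2 and also differ in depth (2537 against 3315 and 2488 against 3374.5 median detected genes).

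**Figure D5:**
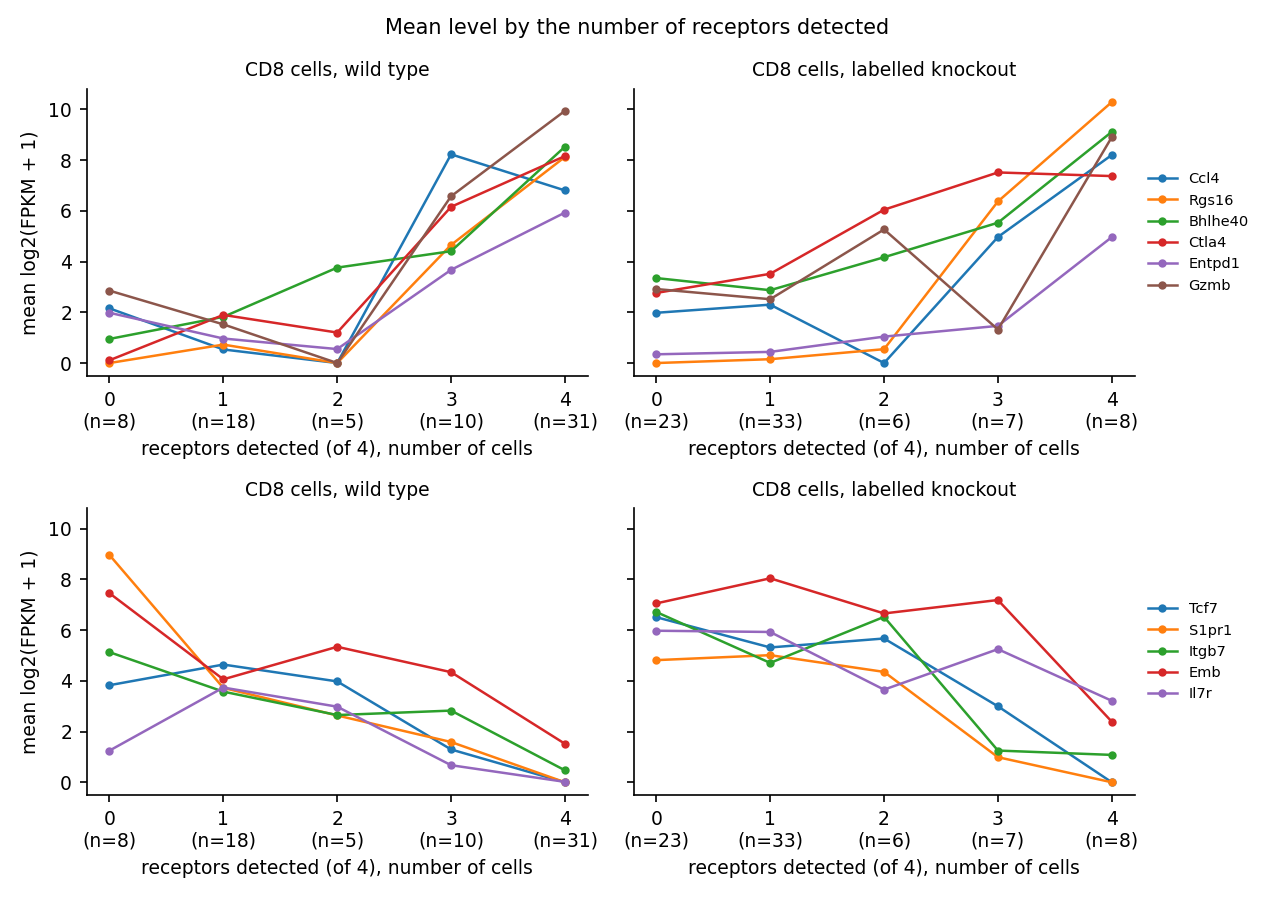
Mean level of 6 called higher genes (upper panels) and 5 called lower genes (lower panels) on the log2(FPKM + 1) scale, by the number of receptors detected, 1 column of panels per plate, with the number of cells under each point. S1pr1 and Tcf7 reach 0 in cells with 4 receptors in both plates, while Rgs16 reaches 8.12 and 10.3.

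The same division of CD4 cells, which the choice of genes did not use, gave 11 and 10 cells with many receptors and 49 and 50 with few. Of the genes higher in CD8 cells and measured in CD4 cells, 55 were at 1 log2 or more in both CD4 plates (18.6%, against 5.41% of all 6049 genes measured in both). Of the lower genes so measured, 40 were at -1 log2 or less in both (24.7%, against 5.22%). Among those that passed, Ctla4 (6.54 and 4.61), Tnfrsf9 (7.52 and 4.50), Entpd1 (4.17 and 5.47), Gzmb (4.15 and 6.56) and Capg (3.98 and 3.90) were higher in CD4 cells with many receptors. Emb (-4.61 and -5.00) and S1pr1 (-2.98 and -5.88) were lower there. Ccl3, Ccl4, Rgs16, Bhlhe40, Id2 and Cxcr6 were not among the higher genes that passed, nor Itgb7 and Il7r among the lower. Foxp3, the factor of regulatory T cells, was detected in 10 of 11 and 6 of 10 of these cells against 13 of 49 and 20 of 50 with few, and regulatory T cells are known to express Ctla4, Tnfrsf9 and Entpd1. The part of Foxp3-positive cells in the CD4 values was not tested.

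Markers of the CD8 label were present in both classes but not in every cell. At least 1 of 5 CD8 lineage markers was detected in 25 of 26 wild-type cells with few receptors and in every cell of the other classes. At least 1 of 7 T cell identity markers was detected in 55 of 56 cells with few receptors labelled knockout and in every cell of the other classes. Their summed level went down to 7.17 FPKM in wild-type cells with many receptors (median 5582). Cd8a was detected in 40 of 41 and 18 of 26 wild-type cells and in 13 of 15 and 46 of 56 labelled knockout, and Cd8b1 was called higher with many receptors (3.41 and 1.17). Cd8b1 came to 0.23 in the mean of the plates without cells bearing other-cell markers besides Tyr, and to -0.02 when Tyr was used too. Foxp3 was at 0 in every cell of all 4 classes, and Cd4 was below 1 FPKM in all cells but 1 of the 56 with few receptors labelled knockout.

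RNA of other cell types differed between the classes, mainly in wild type. The melanoma gene Pmel was detected in 2 of 41 wild-type cells with many receptors and 8 of 26 with few, Dct in 3 of 41 and 7 of 26, and Tyrp1 in 1 of 41 and 5 of 26. On the plate labelled knockout the counts were 1 of 15 and 4 of 56, 0 of 15 and 1 of 56, and 2 of 15 and 1 of 56. Tyr was detected at a low level in all classes (median 7.07 to 10.09 FPKM) and does not separate cells. The summed melanoma markers ranged from 2.92 to 3667.63 FPKM with many receptors and 2.28 to 14138.87 with few in wild type, and from 1.5 to 217.93 and 0 to 1033.97 on the other plate.

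Of 13 myeloid markers, at least 1 was detected in 17 of 41 and 10 of 26 wild-type cells and in 4 of 15 and 16 of 56 labelled knockout, with summed levels of up to 20745.69, 3510.57, 231.6 and 12302.17 FPKM. C1qa and C1qc were at 0 throughout. Fcer1g, the only one detected in enough cells to be tested, was called lower (-1.55 and -1.59), and only with the depth term. The others did not go 1 way by count. Cd74 was detected in 8 of 41 and 0 of 26 and in 2 of 15 and 1 of 56 cells. Tyrobp was detected in 2 of 41 and 2 of 26 and in 0 of 15 and 3 of 56. At least 1 of 5 NK markers was detected in 3 of 41 and 8 of 26 and in 1 of 15 and 12 of 56 cells, and Ncr1 was at 0 in all. At least 1 of 5 B cell markers was detected in 6 of 41 and 9 of 26 and in 3 of 15 and 15 of 56, with Ms4a1 at 0. The part of such RNA in the differences was not tested. Cells were also left out by melanoma, myeloid, B cell, stromal or erythroid markers but Tyr at 10 FPKM or more. This left 17 and 10 wild-type cells and 8 and 28 labelled knockout. Then 51.6% of the higher and 64.3% of the lower genes were called again. The NK list was not used for this. Its gene Klrb1c was detected in 0 of 41 and 6 of 26 wild-type cells and in 0 of 15 and 6 of 56 labelled knockout.

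The calls can be ranked by how many of 20 other ways of cutting or processing the cells repeated them. The plates taken alone and the run without a gene filter are not among the 20, since they repeat every call by construction. The call at 2 log2 is not among them either, and it repeated 14.4% of the higher and 14.6% of the lower calls. The run with genes in 25% of cells is among the 20 and repeats by construction every call whose gene passes that filter. Under all 20, 13 of the higher genes and 8 of the lower genes were called. The 13 were Arsb, Bcl2a1b, Bhlhe40, Ccl4, Ctla4, Efhd2, Entpd1, Id2, Lgals3, Litaf, Plek, Rgs16 and Tnfrsf9, and among the 8 were Emb, Gramd3, Rasa3, S1pr1, Sidt1, Tcf7 and Txk. The median called gene was repeated under 13 of 20 when higher and 11 of 20 when lower.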

How the data were processed

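Smart-seq2 libraries of 384 wells on 4 plates were used, 2 of the plates with CD8 cells. The authors deposited TMM-normalised FPKM for 23420 genes. Per the submitters' processing notes Bowtie, RSEM and build mm10 were used, with no versions or roles stated. RSEM shares reads between similar genes by estimate. No counts were used, so reads per cell are unknown, and detected genes (1 FPKM or more) described depth, 1004 to 5776 per class cell. A gene listed at 0 may be unexpressed or missed. Samples were grouped by title. The classes hold 138 of the 149 kept CD8 cells and of the 376 single-cell wells of the series. Of the tested genes 312 were called higher and 171 lower, 208 passed in opposite directions, and 362 of the called genes had a promoter entry.

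Per gene and plate, log2(FPKM + 1) was regressed on class and centred log2 detected genes (Python 3.11.15, numpy 2.4.6, pandas 2.3.3), for genes detected in at least 10% of the kept CD8 cells of both plates pooled, without the 4 receptors. The code was run on the real cells with profiles exchanged between cells of like depth and known class shifts added. A linear model returns such shifts by construction, so this checks the code and not the depth adjustment. Intervals are exact 95% (scipy 1.17.1) and, without molecular identifiers, cover counting error only. SD over cells is not an error between mice. No doublet caller was run on the sorted wells. The members and the 30 gene lists were chosen with earlier results of these data known. Named genes are the 4 receptors, the 15 called in each direction with the largest smaller-plate difference, called list members, members opposite in the plates and up to 4 further members per list, and a few of these are not reported here. Of list symbols, 3 were found under older symbols and 3 were not matched. Gene positions are GENCODE M21 (GRCm38). Alternatives changed the depth term, pseudocount, filters, class cuts and receptors used. Leaving out a sample within a group was not possible with 1 source per group.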

Additional observations from a re-analysis of the deposited data

Results flagged for a closer look

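A wild-type cell with 3 receptors stood apart from the other 9 of its receptor count, with a mean over the higher genes of 0.382 log2. It was the only such cell in 12 checks of groups of 4 to 10 cells, each group being checked for the higher and for the lower genes. Each check flags a cell about 1 time in 20 by chance, and why this cell stood apart was not tested. The mean over the lower genes also went down to 0.132 log2 among the 10 wild-type cells with 3 receptors.

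Of the list members, 17 passed 1 log2 in opposite directions in the 2 plates. The difference between plates was not tested for any of them, and plate, animal and genotype label cannot be told apart. Higher in wild type and lower on the plate labelled knockout were Atp5b (1.04 and -1.98), Cox6c (1.18 and -1.45), Hmgb2 (1.67 and -2.28), Ikzf3 (2.75 and -1.71), Klf6 (1.43 and -2.63), Psma4 (1.09 and -1.04), Psmb10 (1.93 and -3.43), Samhd1 (1.06 and -3.47), Tap1 (1.86 and -1.02) and Tap2 (1.40 and -1.50). The reverse held for Cd27 (-1.07 and 3.72), Il18rap (-2.04 and 2.15), Il21r (-1.80 and 1.21), Pfkl (-1.40 and 1.10), Ptpn6 (-3.35 and 3.14), Slbp (-1.13 and 1.34) and Tbx21 (-1.84 and 2.79).

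The CD8 population libraries, which entered no comparison, held all 4 receptors. The lowest was Havcr2 in both, at 384.27 FPKM in wild type and 104.57 FPKM labelled knockout, while the wells without a cell held 0 FPKM of all 4.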

How the results depend on the processing

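Shares of tested genes called higher and lower were 4.14% and 2.27% as reported. They were 24.9% and 0.491% without the depth term, and 23.8% and 0.663% with depth read from the lowest FPKM values. That measure was chosen after seeing the data and correlated with log2 detected genes at -0.483 and -0.043. Pairing cells on detected genes (12 and 10 pairs) gave 5.18% and 4.1%, and called again 57.4% of the higher and 51.5% of the lower genes. The shares were 7.54% and 5.29% with a pseudocount of 0.1, 1.17% and 0.61% with 10, 6.74% and 3.76% with genes in 25% of cells, 2.23% and 1.24% with no gene filter (3799 and 14035 genes tested), and 5.14% and 4.17% with 2000 genes per cell. They were 8.34% and 7.72% without cells holding any other-cell marker (the NK list was not used). When Tyr was not used for this either (added after seeing the data), they were 6.22% and 5.53%. They were 6.89% and 7.34% for 4 against 0 receptors, 1.53% and 1.05% by share of cells, and 0.597% and 0.332% at 2 log2. The arithmetic mean, which was taken without the depth term, gave 12.7% and 2.55%. The wild-type plate alone gave 12.2% and 11.4%, and the other plate alone 17.3% and 10.5%. Classes cut with 1 receptor left out set 2 or more of the other 3 against 0. Without Pdcd1 they gave 2.97% and 3.52%, and without Havcr2 3.48% and 3.73%. Both shares stayed within 1.5 times of those reported with a squared depth term, receptors at 10 FPKM, 2 receptors counted as few, classes without Lag3 or without Tigit, and cells of overlapping depth (added after seeing the data).

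Sign changes in the mean of the 2 plates were counted only for named genes that were called and for lists with medians past 1 log2 in both plates. Among these, 23 gene values and 1 list median changed sign under an alternative. Other sign changes were not counted. The housekeeping list, for example, had medians of -0.49 and -0.28 with the depth term and 1.77 and 0.65 without it. Rps3 came to 0.592, 0.143 and 0.183 and Tuba1b to 1.953, 1.580 and 1.834 (no depth term, arithmetic mean also without it, depth from low values). Irf7 came to 0.236 (pairing) and Tnf to -0.182 (2000 genes). Without cells holding other-cell markers, the values were Bcl2a1d at -0.024, Capg at -0.924, Cd28 at -0.586, Cd8b1 at -0.022, Klrc1 at -0.946, Ubash3a at -0.608 and Uqcrq at -0.267. With Tyr not used Cd28 was at -0.533, and the others of these were above 0. Fcer1g and the myeloid list came to 0.000 in both, by construction, since cells with these markers were the ones left out. Cxcr3 came to 0.551 (4 against 0) and 0.007 (no Lag3), Lat to -0.167 (no Pdcd1) and -0.363 (no Havcr2), Srgn to -0.138 (no Pdcd1), and without Havcr2 Itgb2 to -0.049, Nkg7 to -0.075 and the cytotoxic list to -0.102. Smaller classes entered many of these fits; otherwise the cause was not tested. No paired analysis was possible because the classes are cut from cells of 1 plate and the plates share no replicate numbers.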
